A study of Mus musculus with 3 samples.

Results

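The genes of the major histocompatibility complex (MHC) and of antigen presentation were examined in the liver of mice lacking apolipoprotein E on 3 diets, with 1 expression array per diet. Members were the probe sets annotated to a single symbol that began with H2- or was B2m, Tap1, Tap2, Tapbp, Psmb8, Psmb9, Psmb10, Cd74 or Ciita. These were 50 of the 12488 probe sets and gave 37 of 8251 genes, of which 17 were class I, 13 class II and 6 processing genes, while H2-Ke6 is another gene of the region.

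All mice were homozygous apoE knockout males of a C57BL/6JxOLA129 background, a model that develops high plasma cholesterol and atherosclerosis. They were 3 months old when assigned to a diet and ate it for 12 weeks. The first diet held c9,t11-CLA and the second t10,c12-CLA, isomers of conjugated linoleic acid (CLA), while the control diet held linoleic acid, each at 1.0% by weight. Of 29 mice, 10 were assigned to c9,t11-CLA, 9 to t10,c12-CLA and 10 to control. By the design text the diets were semi-purified and isocaloric, with fat as 30% of the energy, whereas the sample labels name a western diet. The labels do not say if an array held the RNA of 1 mouse or of several. With 1 array per diet no difference could be tested, and this limits the precision of every value.

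Class I molecules pair a heavy chain with B2m and show peptides from inside the cell to CD8 T cells and natural killer cells. The peptides are cut by the proteasome, carried into the endoplasmic reticulum by the transporter Tap1-Tap2 and loaded with the help of tapasin, the product of Tapbp. Class II molecules are alpha and beta chain pairs that show peptides from the endosome to CD4 T cells, mostly on macrophages, dendritic cells and B cells. Hepatocytes are known for class I and for secreting H2-Q10, while class II in normal liver is mainly found on Kupffer cells, dendritic cells and other cells of the sinusoid.

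The deposited MAS5 signals, intensities on a linear scale, had a 2%-trimmed mean of 1501 on each array, and median signals of 524 on the c9,t11-CLA, 487 on the t10,c12-CLA and 457 on the control array. Because dim MAS5 signals cannot be told from background, the median of all signals of the 3 arrays together, 490.3, served as a floor, and a gene was called measured in a comparison when it lay above the floor on both arrays. Differences are given on the log2 scale, and 2-fold means a log2 difference of 1. Genes with several probe sets gave a technical SD of a single log2 difference of 0.49 for c9,t11-CLA over control, 0.40 for t10,c12-CLA over control and 0.49 between the CLA arrays. Dividing each array by its median moved the median of all genes by -0.20, -0.09 and 0.11 in these comparisons. The comparisons with control share the control array. All 9 hepatocyte markers on the array were above the floor on each array.

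Of the 37 genes, 25 were above the floor on all 3 arrays, 5 on some of them and 7 on none. The last were H2-T24 and H2-M1 of class I and H2-DMb2, H2-Ob, H2-Pa, H2-Ea and H2-Eb2 of class II. H2-Ea, whose product pairs with H2-Eb1, is defective in C57BL/6 mice. By the reference annotation 33 of the 37 genes lie on chromosome 17, and Psmb9, Tap1, Psmb8 and Tap2 are neighbours there between H2-DMb1 and H2-Ob. Class I genes are close copies of each other, and 12 of the 17 class I genes were represented by a probe set whose identifier marks probes shared with related sequences or an incomplete probe selection, as in 2 of 13 class II genes and 0 of 6 processing genes. Signals of class I heavy chains can therefore mix several genes, which cannot be told apart here.

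**Figure D1:**
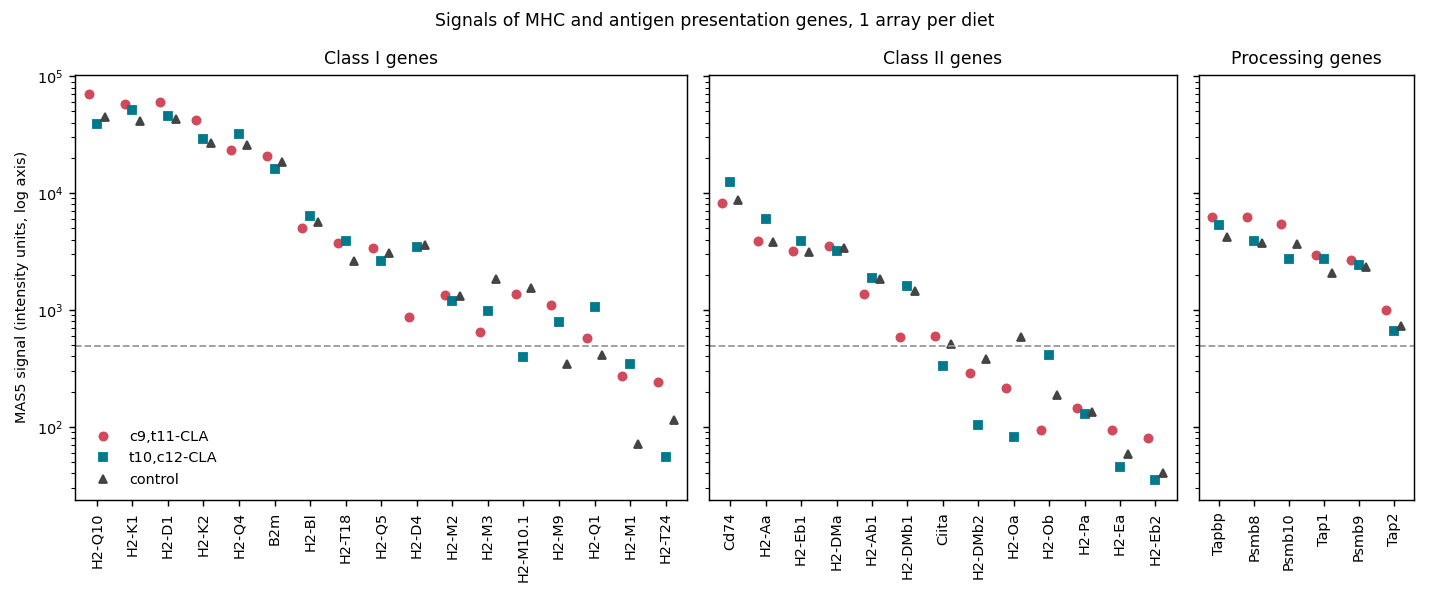
MAS5 signal (log axis) of each class I, class II and processing gene by its brightest probe set, with 1 point per diet, and a dashed line at the floor of 490.3. The processing genes lie above the floor on every array, and on the c9,t11-CLA array H2-D4 at 867 and H2-DMb1 at 585 lie apart from their other arrays.

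By the 2-fold size, 0 of 27 measured members were higher and 3 were lower for c9,t11-CLA over control, 11.1% of the members. Of all 4324 measured genes 2.98% were higher and 2.78% lower by this size. The 3 were H2-D4, H2-M3 and H2-DMb1, each represented by a probe set with a marked identifier, at log2 differences of -2.04, -1.49 and -1.30, and 0 of 15 measured members were 2-fold lower without such probe sets. For t10,c12-CLA over control 0 of 25 were higher and 0 lower, against 2.05% and 1.87% of all 4391 genes. For t10,c12-CLA over c9,t11-CLA 2 of 27 were higher, H2-D4 at 1.99 and H2-DMb1 at 1.46, and 0 were lower, against 3.47% and 2.56% of all 4382 genes. Without marked probe sets 0 of 16 were higher. With so few members a gene moves these shares by several percent, and no comparison had a replicate. The counts leave out any member below the floor on either array compared. H2-M9 on c9,t11-CLA stood 2.24-fold above the floor, and H2-Q1 on t10,c12-CLA 2.15-fold, with control below it. The brightest of the disagreeing H2-M10.1 probe sets stood 3.14-fold above it on control and 2.78-fold on c9,t11-CLA, with t10,c12-CLA below it.

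**Figure D2:**
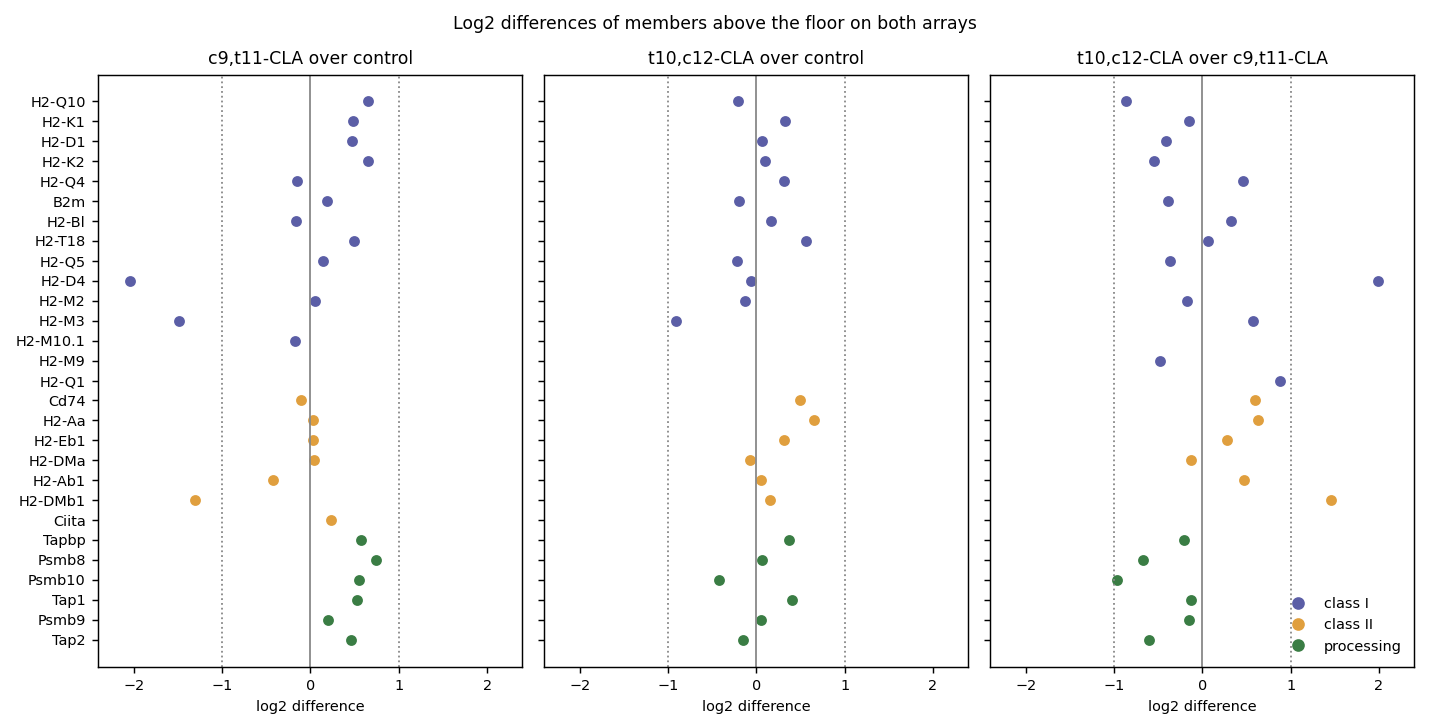
Log2 difference of each class I, class II and processing gene above the floor on both arrays in the 3 comparisons, with dotted lines at 2-fold. H2-D4, H2-M3 and H2-DMb1 lie beyond 2-fold on c9,t11-CLA over control, and the 6 processing genes lie between 0.20 and 0.74 there.

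The promoters of 6 class I and class II members whose signals are described below are shown as examples. They are the 200 bases upstream of the annotated start, taken from RefSeq with build GRCm38.p6, and all lie on chromosome 17. Whether motifs in them bear on the differences between diets was not tested. In the class I promoters, capitals mark the kappa B motif GGGATTCCC of the class I enhancer. The stretches are chr17:34000348-34000547, minus strand, for H2-K1, chr17:35262894-35263093, plus strand, for H2-D1 and chr17:35469889-35470088, plus strand, for H2-Q10.
H2-K1: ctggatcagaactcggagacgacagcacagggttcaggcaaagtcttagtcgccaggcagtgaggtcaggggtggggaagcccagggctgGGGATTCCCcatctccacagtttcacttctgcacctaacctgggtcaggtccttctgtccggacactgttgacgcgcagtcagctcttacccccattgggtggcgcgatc
H2-D1: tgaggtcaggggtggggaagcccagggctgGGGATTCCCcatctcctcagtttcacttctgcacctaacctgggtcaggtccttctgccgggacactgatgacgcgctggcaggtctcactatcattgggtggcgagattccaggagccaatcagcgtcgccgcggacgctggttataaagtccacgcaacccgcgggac
H2-Q10: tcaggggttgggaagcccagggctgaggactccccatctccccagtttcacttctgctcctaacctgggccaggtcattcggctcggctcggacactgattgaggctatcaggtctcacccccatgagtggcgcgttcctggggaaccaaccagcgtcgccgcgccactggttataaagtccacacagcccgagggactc

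The motif GGGATTCCC, searched on both strands, lay in H2-K1 and H2-D1 and in no other of the 24 member genes searched, against 0.213% of the 32851 promoters of the table. H2-Q10 had no match. The stretch that stands in its place there, aggactccc, found by the 6 flanking bases on each side that H2-Q10 shares with H2-K1, differs from the motif by 2 bases, G1A and T5C, counted from 1 at the 5′ end of the motif with the motif's base first. Cd74 and 12 other members were not searched. The strict letters GAAANNGAA of the interferon-response motif lay in B2m and in no other of the 24, against 5.57% of all promoters. Looser forms of this motif were not searched, so the other promoters are not shown to lack it. A match describes the letters and is not a measured binding site.

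In the class II promoters, capitals mark the X box core GNAACNGAT, the X2 box TGACGTCA and the Y box CCAAT, on either strand, which are bound by RFX, CREB and NF-Y proteins and recruit Ciita. The motifs did not overlap in these promoters. The stretches are chr17:34287824-34288023, minus strand, for H2-Aa, chr17:34305667-34305866, plus strand, for H2-Eb1 and chr17:34152991-34153190, plus strand, for H2-DMb1.
H2-Aa: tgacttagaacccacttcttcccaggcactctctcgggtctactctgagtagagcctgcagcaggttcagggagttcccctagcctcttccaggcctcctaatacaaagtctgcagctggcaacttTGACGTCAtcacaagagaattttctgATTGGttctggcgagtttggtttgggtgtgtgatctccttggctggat
H2-Eb1: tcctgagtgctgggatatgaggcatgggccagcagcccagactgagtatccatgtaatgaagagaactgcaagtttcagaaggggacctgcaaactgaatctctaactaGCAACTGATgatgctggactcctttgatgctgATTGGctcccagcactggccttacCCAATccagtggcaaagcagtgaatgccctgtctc
H2-DMb1: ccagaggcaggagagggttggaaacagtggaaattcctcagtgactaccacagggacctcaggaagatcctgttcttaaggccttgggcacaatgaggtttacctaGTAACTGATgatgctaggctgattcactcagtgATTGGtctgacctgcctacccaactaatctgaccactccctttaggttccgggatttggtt

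The X box core lay in H2-Eb1, H2-Eb2 and H2-DMb1, 3 of 8 class II genes searched and none of the other members, against 1.36% of all promoters. The X2 letters lay in H2-Aa and in no other of the 24, against 1.47%. Looser forms of the X and X2 boxes were not searched, so the other promoters, and H2-Aa for the X box, are not shown to lack them. The Y box lay in 7 of 8 class II and 9 of 10 class I genes, against 29.3% of all promoters, so it did not separate the classes.

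The classical class I heavy chains H2-K1 and H2-D1 and the secreted H2-Q10 were brighter on the c9,t11-CLA than on the control array as deposited. H2-Q10 gave a signal of 70764 on the c9,t11-CLA, 38990 on the t10,c12-CLA and 45098 on the control array. H2-K1 gave 57509 on c9,t11-CLA, 51822 on t10,c12-CLA and 41257 on control, and H2-D1 gave 60483, 45613 and 43537 in the same order. The c9,t11-CLA array was the highest for all of these genes. Their log2 differences for c9,t11-CLA over control were 0.65 for H2-Q10, 0.48 for H2-K1 and 0.47 for H2-D1, within 1.5 times the technical SD. After quantile normalization, which gives the arrays the same spread of signals, they were 0.07, 0.08 and 0.01. Among other probe sets above the floor, that of H2-K1 stood at -0.06 and those of H2-D1 at 0.42 and 0.03. A further H2-K1 probe set, the only unmarked one of these genes, gave 736.5 on c9,t11-CLA and 441.3 on control, below the floor there. B2m, the shared light chain, gave 20959 on c9,t11-CLA, 16056 on t10,c12-CLA and 18441 on control, with log2 differences of 0.18 and -0.20 against control. The first of these turned to -0.01 with equal array medians.

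For t10,c12-CLA over control the log2 differences were 0.33 for H2-K1, 0.07 for H2-D1 and -0.21 for H2-Q10, and that of H2-D1 turned to -0.02 with equal array medians. Between the CLA arrays H2-Q10 was lower on t10,c12-CLA, at -0.86, which was -0.34 after quantile normalization. H2-K1 and H2-D1 stood at -0.15 and -0.41 and turned to 0.34 and 0.10 after quantile normalization. The order of the CLA arrays thus depended on the scaling for H2-K1 and H2-D1, while H2-Q10 stayed lower on t10,c12-CLA under each scaling.

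Nonclassical class I genes and pseudogenes did not share a direction. H2-K2, annotated as a transcribed pseudogene, stood at 0.65 for c9,t11-CLA and 0.09 for t10,c12-CLA over control, and H2-T18, of the thymus leukaemia antigen family, at 0.50 and 0.56. H2-Q4 stood at -0.15 and 0.32, H2-Bl at -0.16 and 0.16, H2-Q5 at 0.14 and -0.22, and H2-M2 at 0.05 and -0.13. With equal array medians the c9,t11-CLA values of H2-Q5 and H2-M2 were below 0, at -0.05 and -0.15, and that of H2-M2 was -0.01 after quantile normalization.

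H2-D4 and H2-M3 were the class I genes measured at 2-fold, each through a single probe set of the marked kind. H2-D4, annotated as a transcribed pseudogene, gave 867 on the c9,t11-CLA, 3436 on the t10,c12-CLA and 3575 on the control array, and its other probe set lay below the floor on every array. H2-M3, which presents peptides that begin with formyl-methionine, gave 654 on c9,t11-CLA, 975 on t10,c12-CLA and 1840 on control, and its other probe set was also below the floor throughout. The control array was the highest for both, and c9,t11-CLA the lowest. H2-M3 had log2 differences of -1.49 on c9,t11-CLA and -0.92 on t10,c12-CLA over control, and H2-D4 of -2.04 and -0.06.

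Of the class I genes below the floor on some arrays, H2-M9, by an unmarked probe set, gave 1096 on the c9,t11-CLA, 784 on the t10,c12-CLA and 345 on the control array, at least 2.24-fold and at least 1.60-fold higher than on control. H2-Q1 gave 573 on c9,t11-CLA, 1052 on t10,c12-CLA and 415 on control, at least 1.17-fold and at least 2.15-fold higher. Probe sets of H2-M10.1, of a family known from vomeronasal neurons, disagreed. Its brightest gave 1363 on c9,t11-CLA, 396 on t10,c12-CLA and 1540 on control, at least 3.14-fold lower on t10,c12-CLA than on control. An unmarked probe set gave 1167, 1044 and 628 in the same order, with log2 differences of 0.89 and 0.73 over control. No direction is given for this gene.

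Across class I the median log2 difference was 0.14 over 13 measured genes for c9,t11-CLA over control, with 8 above 0 and 2 at least 2-fold lower. It turned to -0.05 with equal array medians. For t10,c12-CLA over control it was 0.0049 over 12 genes, 6 above and 6 below 0, or -0.08 with equal array medians, and for t10,c12-CLA over c9,t11-CLA it was -0.16 over 14 genes, or 0.05 after quantile normalization. The medians over all measured genes were 0.02, -0.01 and -0.05 in these comparisons. A further 11 probe sets match several symbols with an H2 gene among them, and 7 of these were above the floor on all arrays. Their log2 differences spanned -0.75 to 0.72 for c9,t11-CLA over control and -0.24 to 0.59 for t10,c12-CLA over control.

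**Figure D3:**
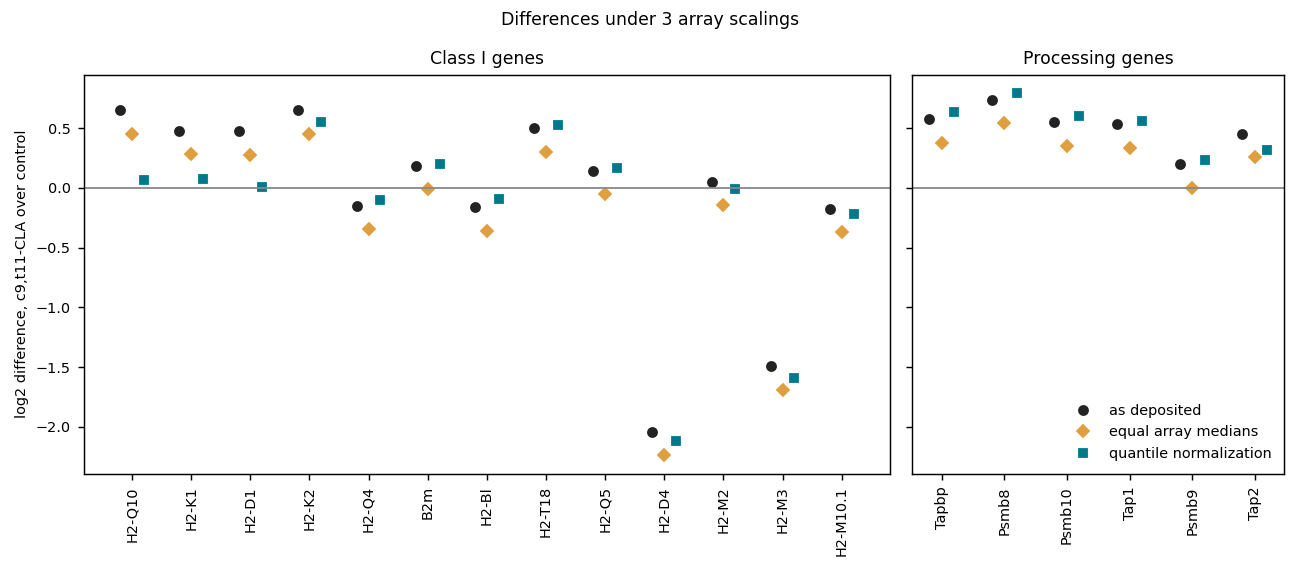
Log2 difference for c9,t11-CLA over control of each measured class I gene (left) and processing gene (right), from the signals as deposited, with equal array medians and after quantile normalization. H2-Q10, H2-K1 and H2-D1 move close to 0 after quantile normalization, while the processing genes stay above 0, with Psmb9 at 0.0021 with equal array medians.

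The genes that prepare peptides for class I were all brighter on the c9,t11-CLA than on the control array as deposited, none of them by 2-fold. All 6 had log2 differences above 0, from 0.20 to 0.74 with a median of 0.54. Each single value was within 1.5 times the technical SD of 0.49. The medians were 0.34 with equal array medians and 0.58 after quantile normalization. With equal array medians Psmb9 stood at 0.0021, level with control, and the other 5 genes at 0.26 to 0.54. Over all 4324 measured genes 52.2% were above 0. On the t10,c12-CLA array 4 of the 6 were above and 2 below control, with a median of 0.05 that turned to -0.04 with equal array medians. Between the CLA arrays all 6 were lower on t10,c12-CLA, with a median of -0.41.

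Psmb8, Psmb9 and Psmb10 are the catalytic subunits that replace Psmb5, Psmb6 and Psmb7 in the immunoproteasome, a form of the proteasome induced by interferon gamma. Psmb8 gave 6222 on the c9,t11-CLA, 3890.4 on the t10,c12-CLA and 3733 on the control array. Psmb10 gave 5401 on c9,t11-CLA, 2755 on t10,c12-CLA and 3691 on control, and Psmb9 gave 2674, 2413 and 2332. The c9,t11-CLA array was the highest for each subunit. Log2 differences for c9,t11-CLA over control were 0.74 for Psmb8, 0.20 for Psmb9 and 0.55 for Psmb10. For t10,c12-CLA over control they were 0.06, 0.05 and -0.42, and those of Psmb8 and Psmb9 turned to -0.03 and -0.04 with equal array medians.

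The constitutive subunits stood below control on the c9,t11-CLA array, at -0.88 for Psmb5, -0.14 for Psmb6 and -0.21 for Psmb7. The log2 difference of the inducible subunit minus that of its constitutive counterpart was 1.62 for Psmb8 and Psmb5, 0.34 for Psmb9 and Psmb6 and 0.76 for Psmb10 and Psmb7. A second probe set of Psmb5 stood at 0.22 for c9,t11-CLA and 0.32 for t10,c12-CLA over control, so the first of these differences rests on a gene whose probe sets disagree. The probe sets used for Psmb5 and Psmb7 carry marked identifiers. On t10,c12-CLA the same differences were 0.46, -0.04 and -0.75, and between the CLA arrays -1.15, -0.38 and -1.51. Each kept its sign under quantile normalization.

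**Figure D4:**
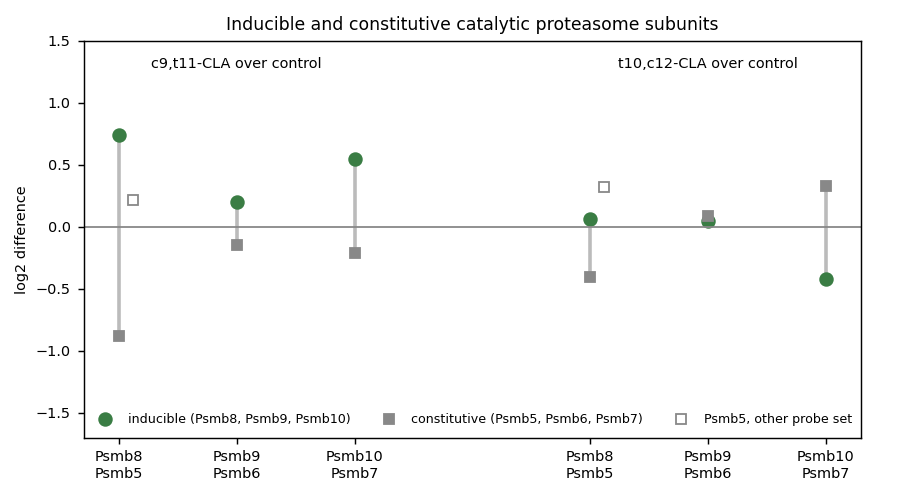
Log2 difference over control of the inducible proteasome subunits (circles) and their constitutive counterparts (filled squares), joined by a line, for each CLA array. On c9,t11-CLA the inducible subunits lie between 0.20 and 0.74 and the filled squares between -0.88 and -0.14, while the open square shows the other probe set of Psmb5 at 0.22.

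Tap1 gave 2984 on the c9,t11-CLA, 2727 on the t10,c12-CLA and 2066 on the control array, and Tap2 gave 1001, 657 and 731. Tapbp gave 6215 on c9,t11-CLA, 5377 on t10,c12-CLA and 4176 on control. Tap1 and Tapbp were lowest on control, and Tap2 on t10,c12-CLA. The log2 differences on c9,t11-CLA and t10,c12-CLA over control were 0.53 and 0.40 for Tap1, 0.57 and 0.36 for Tapbp and 0.45 and -0.15 for Tap2. The 3 probe sets of Tapbp ranged from -0.17 to 0.61 for c9,t11-CLA and from 0.08 to 0.72 for t10,c12-CLA.

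Among the other genes of class I loading and peptide trimming, 7 of the 10 on the array were measured, and 5 of these were above control on each CLA array as deposited. None was 2-fold higher, and 1, the disulfide isomerase Pdia3 of the loading complex, was 2-fold lower on t10,c12-CLA, at -1.16, and stood at -0.71 on c9,t11-CLA. The chaperone Canx stood at 0.87 on c9,t11-CLA and 0.17 on t10,c12-CLA, but another probe set was at -0.16 for c9,t11-CLA. Psme1, a subunit of the proteasome activator, stood at 0.16 and -0.04, and the chaperone Calr was below the floor on every array.

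Hepatocyte markers were also brighter on the c9,t11-CLA array, with 8 of 9 above control as deposited, a median log2 difference of 0.77 and summed signals of 492025 on c9,t11-CLA, 267691 on t10,c12-CLA and 240990 on control. After quantile normalization the median was 0.74 with 6 of 9 above control, and the summed signals were 389901 on c9,t11-CLA, 297277 on t10,c12-CLA and 264600 on control. Their part in the processing gene differences was not tested. In RNA of whole liver, fewer cells of a type and less RNA per cell cannot be told apart.

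Class II genes were close to control on the c9,t11-CLA array except for H2-DMb1 and H2-Ab1, and 5 of the 6 measured were brighter on the t10,c12-CLA array than on either of the others. H2-Aa, the alpha chain of the I-A molecule, gave 3879 on the c9,t11-CLA, 6016 on the t10,c12-CLA and 3816 on the control array. Cd74, the invariant chain that guards the peptide groove, gave 8206 on c9,t11-CLA, 12417 on t10,c12-CLA and 8820 on control. H2-Eb1, the beta chain of I-E, gave 3201, 3894 and 3132 in that order. The t10,c12-CLA array was the highest for all of these. Their log2 differences for t10,c12-CLA over control were 0.66 for H2-Aa, 0.49 for Cd74 and 0.31 for H2-Eb1. For c9,t11-CLA over control they were 0.02, -0.10 and 0.03, and with equal array medians H2-Aa and H2-Eb1 turned to -0.17 and -0.16.

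H2-Ab1, the I-A beta chain, gave 1362 on c9,t11-CLA, 1887 on t10,c12-CLA and 1824 on control, with log2 differences of -0.42 and 0.05 over control. This partner chain of H2-Aa thus stood near control on t10,c12-CLA, against 0.66 for H2-Aa, and its value turned to -0.04 with equal array medians. Between the CLA arrays H2-Ab1 stood at 0.47 and H2-Aa at 0.63. Whether the 2 chains differ was not tested. H2-DMa and H2-DMb1 form the DM molecule, which exchanges peptides on class II. H2-DMa gave 3502 on c9,t11-CLA, 3215 on t10,c12-CLA and 3394 on control, with log2 differences of 0.05 and -0.08, the first of which was -0.15 with equal array medians. H2-DMb1 gave 585 on c9,t11-CLA, 1611 on t10,c12-CLA and 1444 on control, with log2 differences of -1.30 and 0.16. Its c9,t11-CLA signal lay just above the floor, and a second probe set shared by H2-DMb1 and H2-DMb2 was below the floor on every array.

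Ciita, the coactivator of class II promoters, gave 603 on c9,t11-CLA, 329 on t10,c12-CLA and 512 on control. It was at least 1.04-fold lower on t10,c12-CLA than on control, with signals too near the floor for a larger statement. H2-Oa, a subunit of the DM modulator DO, was above the floor on the control array only, at 586.

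The class II median log2 difference was 0.02 over 7 genes for c9,t11-CLA over control, which turned to -0.17 with equal array medians. It was 0.24 over 6 genes for t10,c12-CLA over control, 5 of them above 0, and 0.53 over 6 genes for t10,c12-CLA over c9,t11-CLA, also with 5 above 0. Over all measured genes 49.1% and 45.7% were above 0 in these comparisons, and with equal array medians the class II count against control was 4 of 6. As deposited the exception was H2-DMa, at -0.08 and -0.12. Both medians stayed above 0 with equal array medians and after quantile normalization. Between the CLA arrays H2-Aa stood at 0.63, Cd74 at 0.60, H2-Ab1 at 0.47 and H2-Eb1 at 0.28, each within 1.5 times the technical SD of 0.49.

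The lysosomal genes of class II processing were above the floor on all arrays in 7 of 7 cases. On c9,t11-CLA 6 of 7 were below control, with a median log2 difference of -0.37, and on t10,c12-CLA 5 of 7 were above, with a median of 0.11. Ctss, the protease that removes Cd74 from class II, stood at -0.13 and 0.26 over control. As deposited none of the 7 was 2-fold in any comparison by its brightest probe set. With equal array medians all 7 were below control on c9,t11-CLA, 1 of them 2-fold, and 1 was 2-fold higher between the CLA arrays. Probe sets of Ctsb disagreed in size. The brightest stood at -0.16 for c9,t11-CLA over control, and others above the floor at -1.29 and -0.42. MHC-like genes outside H2 were measured in 3 of 7 cases, with medians of -0.59 and -0.14 over control. Of 4 costimulatory genes on the array, 0 could be measured in any comparison.

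Markers of macrophages and Kupffer cells moved with the class II genes between the CLA arrays. Of 13 measured markers, 12 were higher on t10,c12-CLA than on c9,t11-CLA, the median log2 difference being 0.75. The exception was Clec4f, a lectin of Kupffer cells, at -0.46, which stood at 0.84 on c9,t11-CLA and 0.38 on t10,c12-CLA over control. These counts use the brightest probe set of each marker. A second probe set of C1qb stood at -0.83 between the CLA arrays, against 0.76 for the brightest, so its probe sets disagree. A second probe set of Laptm5 kept its direction, at 0.68. On c9,t11-CLA 8 of 13 were below control, with a median of -0.21. On t10,c12-CLA 12 of 13 were above control as deposited, with a median of 0.38, and 11 of 13 with equal array medians. The summed signal of the 17 markers on the array was 74403 on c9,t11-CLA, 120686 on t10,c12-CLA and 91031 on control, and Marco, Fcgr3, Fcer1g and Ptprc were below the floor on every array. In the same order, summed dendritic cell markers gave 9608, 6594 and 5726 over 6 genes, and summed B cell markers 6158, 5974 and 6007 over 8 genes. Summed sinusoidal endothelial markers gave 6097, 7372 and 5022 over 7 genes, also highest on t10,c12-CLA. Between the CLA arrays 2 of their 5 measured genes were above 0, with a median of -0.01, or 0.09 with equal array medians. Of the B cell markers, Cr2 was below the floor on every array, as were Zbtb46 and Ccr7 of the dendritic cell markers and 11 of 12 T and natural killer cell markers. The B cell markers did not move together for c9,t11-CLA over control. As deposited, 4 of 4 measured ones were above 0. Cd79a and Cd79b, below the floor on c9,t11-CLA, were at least 2.20-fold and at least 1.05-fold lower there. The part of these cells in the class II differences was not tested.

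**Figure D5:**
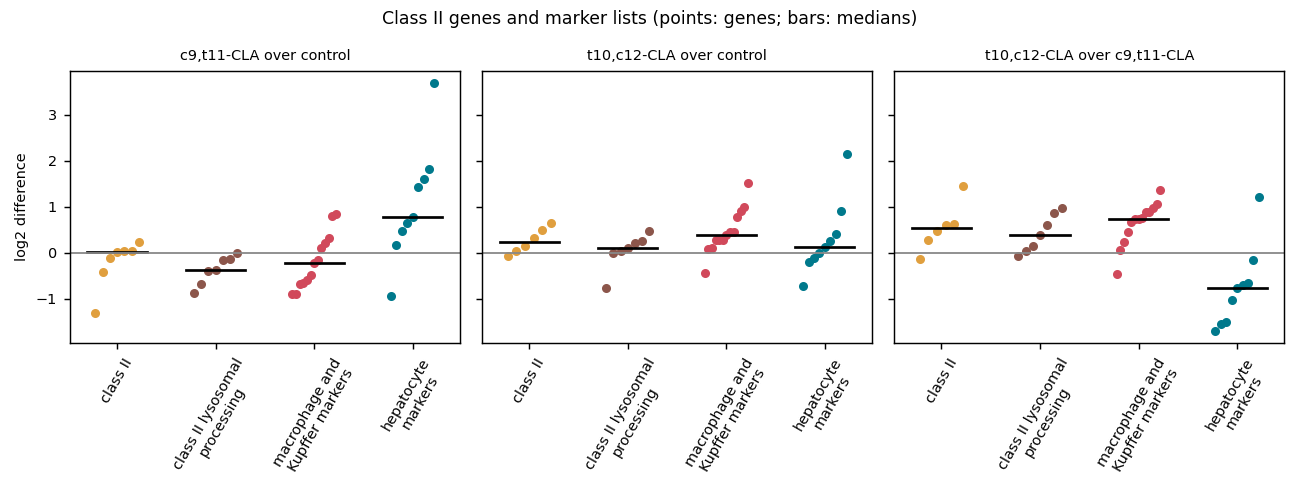
Log2 differences of measured class II genes, lysosomal class II processing genes, macrophage and Kupffer cell markers and hepatocyte markers in the 3 comparisons, with a point per gene and a bar at the median. Between the CLA arrays the medians are 0.53 for class II, 0.39 for lysosomal processing and 0.75 for macrophage markers, against -0.76 for hepatocyte markers as deposited, which was -0.22 after quantile normalization.

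Among regulators of interferon signalling and of class II, 12 of 19 genes on the array were measured, with medians of 0.0008 for c9,t11-CLA and -0.15 for t10,c12-CLA over control. With equal array medians these were -0.19 and -0.24. Irf1, a transcription factor that drives Tap1, Psmb9 and class I genes, gave 2369 on c9,t11-CLA, 1737 on t10,c12-CLA and 1920.0 on control. Its log2 differences of 0.30 and -0.14 were smaller than the technical SD. Irf7, a transcription factor of the interferon response, was at 1.00 on c9,t11-CLA, from 1915 against 955 on control, with a second probe set at 0.41. It fell short of 2-fold with equal array medians, at 0.81, and after quantile normalization, at 0.94. Psme2 was not represented by a probe set of its own. Ifnar1, a chain of the type I interferon receptor, was lower on t10,c12-CLA than on c9,t11-CLA, at -1.06, from 500.4 against 1044. The dimmer signal lay just above the floor, and the difference fell short of 2-fold with equal array medians, at -0.95, and after quantile normalization, at -0.97. Ifngr2, a chain of the interferon gamma receptor, gave 159 on c9,t11-CLA, 989 on t10,c12-CLA and 337 on control. It was above the floor on t10,c12-CLA only, at least 2.02-fold higher than on either other array. Of the interferon-induced list, 8 of 18 genes were measured on each CLA array against control, with medians of 0.13 and -0.07. The c9,t11-CLA median turned to -0.07 with equal array medians and was 0.03 after quantile normalization. Iigp1, an interferon-induced GTPase, was 2-fold lower on t10,c12-CLA at -1.26, and its other probe set stood at -0.69.

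H2-Ke6, which encodes a hydroxysteroid dehydrogenase and is no antigen presentation gene, gave 3485 on c9,t11-CLA, 4046 on t10,c12-CLA and 3708 on control. Its log2 differences over control were -0.09 and 0.13.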

How the data were processed

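Liver RNA was measured on 3 Affymetrix mouse arrays, 1 per diet, from cRNA labelled with biotin and made from 8 µg of total RNA, per the labels. The deposited values are MAS5 signals, a linear intensity per probe set, per the submitters' processing notes, and the software version and scaling target are not given in the sources used here. The authors' arrays had equal 2%-trimmed means. Detection calls were not used.

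Symbols came from the platform annotation and were brought up to date by Entrez identifier in a RefSeq table of GRCm38.p6. A single symbol was found for 10833 of 12488 probe sets, and 10817 of these were in that table. Probe sets with several symbols (396), with none (1193) and array controls (66) were left out. For each of the resulting 8251 genes the probe set that was brightest on average (log2 signal) was used. No pseudocount was used. For a gene above the floor on 1 array of a comparison, the brighter signal was divided by the floor and the result is called at least N-fold. The technical SD came from the brightest 2 probe sets of each gene above the floor on both arrays, with 529, 566 and 553 pairs for c9,t11-CLA over control, t10,c12-CLA over control and t10,c12-CLA over c9,t11-CLA. It does not hold the variation between mice.

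Every member with a probe set above the floor on some array was named. Genes of other pathway lists were named where they reached 2-fold, and Irf1, Calr, Canx, Ctss, Psme1 and Psme2 whatever their values; another gene of that rule is not reported here. Members and lists were chosen with earlier results of these data known. Motifs were searched in the first listed promoter of each gene, and their shares are over all 32851 listed promoters.

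Alternatives were equal array medians, quantile normalization, floors at the 25th and 75th percentile, a pseudocount of 50, the mean over probe sets, and leaving out probe sets with marked identifiers. Counting was tested on simulated data with planted changes larger than 2-fold, in bright genes and with less noise than the technical SD. This checks the counting code and does not test calls near 2-fold or near the floor. Python 3.11.15, numpy 2.4.6, pandas 2.3.3, scipy 1.17.1 and matplotlib 3.10.9 were used.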

Additional observations from a re-analysis of the deposited data

Results flagged for a closer look

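H2-DMb1 was the one member above the floor on all arrays whose log2 differences over control had opposite signs on the CLA diets, -1.30 on c9,t11-CLA and 0.16 on t10,c12-CLA, and whose CLA arrays were at least 2-fold apart, with 1.46 for t10,c12-CLA over c9,t11-CLA. The value of 0.16 was smaller than the technical SD of 0.40, so its sign is uncertain. The c9,t11-CLA signal of 585 lay just above the floor, and the probe set carries a marked identifier. With 1 array per diet the difference was not tested.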

How the results depend on the processing

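No paired analysis was possible because each diet had 1 array. Of 105 recomputed counts and medians, 88 stayed close to the reported value, and of 497 recomputed values of single members 492 did, that is within the technical SD (for a median, divided by the square root of the number of genes) or, for counts, within 1.5 times. No member at 2-fold or more changed sign. Many of the 492 were fixed by construction. A new floor does not change the log2 difference of a gene that stays measured. Equal array medians shift every gene of a comparison by the same amount, -0.20, -0.09 or 0.11, which is smaller than the technical SD. A gene with 1 probe set cannot move when probe sets are averaged or left out. The 492 is thus no measure of how firm the values are. With the floor at the 25th percentile, 1 member was 2-fold higher for c9,t11-CLA over control, 3 were higher and 1 lower for t10,c12-CLA over control, and 1 was lower for t10,c12-CLA over c9,t11-CLA. With the floor at the 75th percentile, 0 members were 2-fold lower for c9,t11-CLA over control and 0 higher between the CLA arrays, and the class I medians were 0.47 and -0.37 in these comparisons, over fewer genes. Without marked probe sets the same counts were 0 and 0, and the class I medians were -0.13 for t10,c12-CLA over control and -0.36 for t10,c12-CLA over c9,t11-CLA. Equal array medians gave class I and class II medians of -0.051 and -0.17 for c9,t11-CLA over control, and 1 member 2-fold lower for t10,c12-CLA over control. Quantile normalization gave 1 member 2-fold lower and a class I median of 0.052 for t10,c12-CLA over c9,t11-CLA. The low floor adds dim genes and the other rules remove genes by construction, and the cause of other shifts was not tested. The processing medians stayed above 0 for c9,t11-CLA over control and below 0 between the CLA arrays under every alternative run. Genes near the floor have no order.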
